A study of Mus musculus with 8 samples.

Results

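Tdgf1 and Fgf4 are signalling genes of pluripotent mouse cells, and their messages were followed through the ES–ELA transition in total RNA and in RNA recovered with ribosomes. They were chosen by name, as 2 of the 3160 genes in the deposited table, because both messages fell in total RNA while only that of Tdgf1 also fell in ribosome loading. The falls and the loading values below therefore describe why the pair was picked. They are given with their errors and without a test. Ribosome loading within ES cells was not what they were chosen on, although its libraries also enter the loading change, and it was tested.

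All samples were E14Tg2A, an embryonic stem (ES) cell line of strain 129/Ola, with no altered allele given in the labels. The ES groups were cells at 0 days in vitro, kept on gelatin in serum with leukaemia inhibitory factor (LIF). The ELA groups were epiblast-like aggregates, formed when these cells floated for 2 days in a serum-free defined medium (CDMM) without LIF. Cells of both stages were treated with cycloheximide, which stalls ribosomes, before lysis. A fraction of each lysate gave the input library, a measure of total RNA, and an antibody against the endogenous ribosomal protein Rpl10a gave the Rpl10a-IP library, a measure of ribosome-bound RNA. Both fractions of both stages made 4 groups, each with 2 libraries. A control immunoprecipitation with an antibody against GFP was not analysed here, so RNA recovered without ribosomes was not subtracted. All values come from 1 cell line, and the labels do not say whether replicates were separate cultures, so the spread between them may be technical. These are bulk samples, in which fewer cells that express a gene cannot be told apart from less RNA per cell.

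Tdgf1 encodes Cripto, a protein held on the cell surface by a glycosylphosphatidylinositol (GPI) anchor, which binds Nodal and brings it to its activin-type receptors. Receptor activity passes through Smad2 and Smad3 to Smad4, and Nodal signalling sustains the epiblast before it forms the germ layers. Fgf4 encodes a secreted fibroblast growth factor that pluripotent cells make and answer to themselves. With heparan sulphate it binds Fgf receptors, signals through Ras and Erk, and is known to prepare ES cells to leave the naive state.

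In the RefSeq annotation of GRCm38.p6, Tdgf1 spans chr9:110939608-110946158 and Fgf4 spans chr7:144861386-144865245, both as protein-coding genes. RefSeq lists 2 Tdgf1 pseudogenes, Tdgf1-ps1 on chromosome 16 and Tdgf1-ps2 on chromosome 17, so the assignment of some Tdgf1 reads is uncertain. The 250 bases before each gene start, from RefSeq on the same build, are shown because messages of both genes fell together in total RNA. The Tdgf1 stretch is chr9:110946159-110946408, read on the minus strand, and the Fgf4 stretch is chr7:144861136-144861385, read on the plus strand. Capitals mark GGGCGG, known as the GC box, and TATATA, both searched on either strand. They also mark GTAATGGGCGTGGGGCCCC, the longest stretch of the Tdgf1 window that occurs in it again without overlapping its first copy. All 3 were chosen after the sequences were read, and shares are over all 32851 RefSeq promoters of this length.
Tdgf1: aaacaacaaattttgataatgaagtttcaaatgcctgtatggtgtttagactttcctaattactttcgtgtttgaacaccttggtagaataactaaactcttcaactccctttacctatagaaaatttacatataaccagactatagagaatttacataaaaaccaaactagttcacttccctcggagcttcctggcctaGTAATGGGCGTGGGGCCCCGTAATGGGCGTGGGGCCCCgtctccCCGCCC
Fgf4: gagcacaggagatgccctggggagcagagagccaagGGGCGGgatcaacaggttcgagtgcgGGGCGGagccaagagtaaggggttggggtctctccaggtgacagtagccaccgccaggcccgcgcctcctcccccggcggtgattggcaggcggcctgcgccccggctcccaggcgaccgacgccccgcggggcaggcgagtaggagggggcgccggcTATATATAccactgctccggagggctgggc
The Tdgf1 stretch held the run of 19 bases as a tandem repeat, beginning 50 and 31 bases before the gene start, and it was the 1 promoter of the set that held it. A single GGGCGG lay on the opposite strand, 6 bases before the start of Tdgf1. The Fgf4 stretch held a pair of overlapping TATATA matches, beginning 30 and 28 bases before the start, and GGGCGG at 214 and 188 bases before it. TATATA was found in 5.25% and GGGCGG in 32.7% of all promoters. Base composition also set the pair apart. The Tdgf1 stretch was 42.0% G and C with 7 CpG sites, against 71.2% with 21 CpG sites for Fgf4 and medians of 52.4% and 6 over all promoters. These matches describe letters in a window and not sites of binding, and no reading of the promoters was made in these samples.

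The libraries differed widely in depth. Reads over the 3160 genes numbered 3898414 and 5380139 in ES input, 18077263 and 19233487 in ES Rpl10a-IP and 16076207 and 23483388 in ELA Rpl10a-IP. ELA input held only 159587 and 410192 reads, a median of 26 and 66 per gene, and the first of these libraries is the one the study set aside in its methods. The authors had filtered the table on agreement between replicates, and the spread between the ELA input libraries was smaller than counting alone gives. Over the 3104 genes with at least 5 reads in both, the SD of the log2 difference was 0.261, against 0.380 from counting. Fitted errors and adjusted p-values that rest on ELA input are therefore too small, and the counting error is printed beside the values of the pair. Intervals of 95% cover counting error only. Naive and epiblast markers moved with the stage. Of 7 measured naive and core pluripotency markers (of 19 listed), 5 fell in total RNA and 1, Sall4, rose, while 3 of 4 measured epiblast markers (of 13) rose, among them Dnmt3b by 2.62 on the log2 scale. Of all genes, 34.5% were called higher and 35.8% lower in total RNA. The markers Nes, Ncam1 and Map2, which were all that was measured of 8 neural genes, rose by 1.23 to 2.51 in log2 total RNA, and their log2 ribosome loading, the ratio of ribosome-bound to total RNA, changed by -1.28 to -0.43. Of 13 primitive endoderm markers, the laminin genes Lama1 and Lamb1 were measured, and Gata4, Gata6 and Sox17 were not in the table. Lama1 and Lamb1 fell by 0.80 and 0.61 in log2 total RNA, while their log2 loading rose by 1.01 and 0.91. No gene of the mesoderm and streak or of the trophectoderm and fibroblast marker lists was in the table. The part of these changes in cell state in the values of Tdgf1 and Fgf4 was not tested.

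Tdgf1 was high in ES cells and became scarce in ELA, more so on ribosomes than in total RNA. The ES input libraries held 10146 and 7623 Tdgf1 reads and the ES Rpl10a-IP libraries 37054 and 38784. The ELA input libraries held 22 reads (95% Poisson interval 13.8 to 33.3) and 54 reads (40.6 to 70.5), and the ELA Rpl10a-IP libraries 623 and 439. After scaling for depth, the normalised read counts were 8636 and 8779 in ES input, 9345 and 9339 in ES Rpl10a-IP, 598 and 572 in ELA input, and 124 and 129 in ELA Rpl10a-IP. In ES cells the message thus stood at nearly the same level in both fractions, while in ELA both ribosome-bound values lay below both total RNA values. Tdgf1 was chosen for its fall between the stages, so their separation is not read as a result.

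Fgf4 started lower and fell to about one common level in both fractions. The ES input libraries held 1353 and 1025 Fgf4 reads and the ES Rpl10a-IP libraries 3833 and 4947. The ELA input libraries held 5 reads (95% Poisson interval 1.62 to 11.7) and 17 reads (9.90 to 27.2), and the ELA Rpl10a-IP libraries 800 and 620. The normalised counts were 1152 and 1180 in ES input, 967 and 1191 in ES Rpl10a-IP, 136 and 180 in ELA input, and 159 and 182 in ELA Rpl10a-IP. Fgf4 was chosen for its fall as well, so the gap between the stages is not read as a result. Within each stage the values of the 2 fractions overlapped. The level of 5 reads is close to the floor of 3 reads, which stands at 81.6 normalised counts in that library, so the Fgf4 total RNA value of ELA is coarse.

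**Figure D1:**
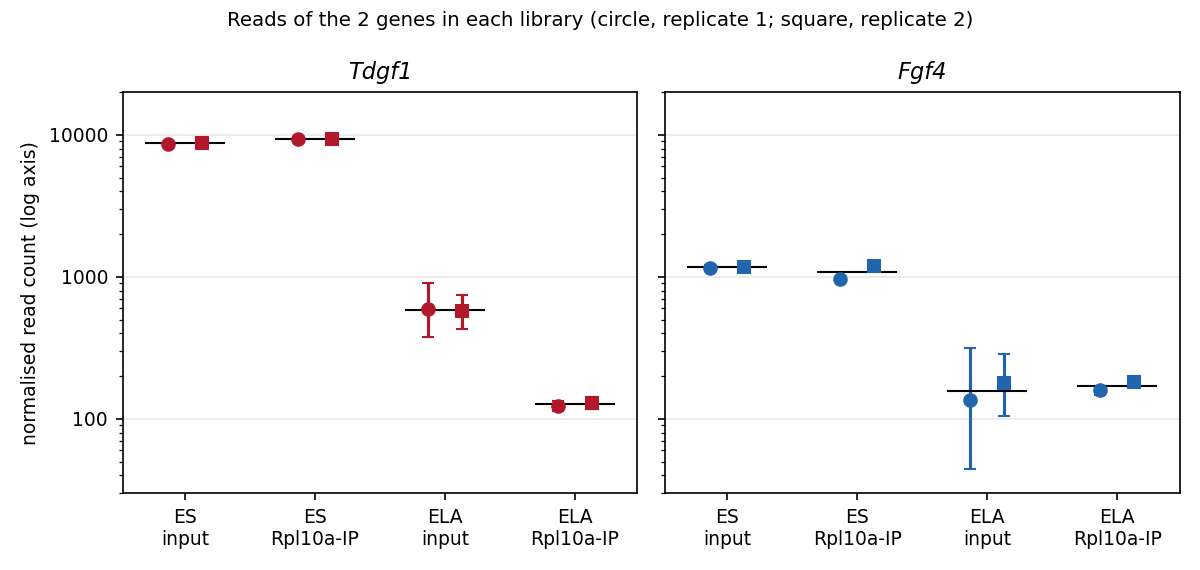
Normalised read counts of Tdgf1 (left) and Fgf4 (right) in each of the 8 libraries on a log axis; circles are replicate 1, squares replicate 2, black lines the group means and bars the 95% Poisson intervals of the reads. Tdgf1 dropped a further step from ELA input, at a mean of 585, to ELA Rpl10a-IP, at 126, whereas Fgf4 stood at 158 and 170.

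The group means of normalised counts put the contrast plainly. Tdgf1 averaged 8707 ± 101 in ES input (SD, n = 2), 9342 ± 3.85 in ES Rpl10a-IP, 585 ± 18.2 in ELA input and 126 ± 3.71 in ELA Rpl10a-IP. Fgf4 averaged 1166 ± 20.4, 1079 ± 159, 158 ± 31.3 and 170 ± 16.4 in the same order. Per kilobase of the longest annotated coding transcript, the level of Tdgf1 stood at 4523 and that of Fgf4 at 385 in ES input. In ELA Rpl10a-IP the levels per kilobase were 65.6 for Tdgf1 and 56.2 for Fgf4, so that 2 messages far apart in ES cells arrived on ELA ribosomes in similar amounts.

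Total RNA of Tdgf1 changed by -3.89 on the log2 scale (SE 0.11; counting interval -4.25 to -3.53), a level 14.9-fold lower in ELA. This was the largest fall of all 3160 genes in this fit. Fgf4 changed by -2.89 in log2 total RNA (SE 0.14; counting interval -3.61 to -2.17), 7.41-fold lower and rank 10 from the lowest. Over all genes the median change was -0.02, and 35.8% of genes were called lower in total RNA. The pair was chosen for these falls, so nothing is read from that share.

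Ribosome-bound RNA fell further for Tdgf1 and about as far as total RNA for Fgf4. The Rpl10a-IP libraries gave a log2 change of -6.20 for Tdgf1 (SE 0.11; counting interval -6.29 to -6.11), 73.4-fold lower and again rank 1 from the lowest, and of -2.65 for Fgf4 (SE 0.14; counting interval -2.73 to -2.57), 6.28-fold lower and rank 17. Of all genes, 39.6% were called lower in ribosome-bound RNA. These libraries held at least 439 reads of either gene, so counting added little error here.

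Ribosome loading was formed within same-numbered libraries as the normalised count in Rpl10a-IP over that in input, so that a ratio of 1 is that of a typical gene of the table. For Tdgf1 it was 1.08 and 1.06 in ES cells, and 0.207 (counting interval 0.135 to 0.332) and 0.225 (0.170 to 0.305) in ELA. For Fgf4 it was 0.839 and 1.01 in ES cells, and 1.17 (0.499 to 3.61) and 1.01 (0.626 to 1.75) in ELA. The Tdgf1 ratio lay near 1 in ES cells and below 0.4 in ELA even at the upper interval bounds, while the Fgf4 ratio lay around 1 in both stages with wide bounds in ELA.

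On the log2 scale, loading of Tdgf1 changed by -2.30 between ES and ELA (SE 0.15; counting interval -2.67 to -1.94), 4.94-fold lower and rank 5 from the lowest. Loading of Fgf4 changed by 0.24 (SE 0.19), with a counting interval from -0.49 to 0.96 that holds both a fall and a rise. The log2 loading change of Tdgf1 minus that of Fgf4 was -2.54, with a counting interval from -3.36 to -1.73. The median loading change of all genes was 0.01, and 27.7% of genes were called lower in loading, 9.05% called and more than 2-fold lower. The contrast was the basis of the choice and was not tested.

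Within ES cells, where reads were plentiful, neither message was called different between fractions in limma's test with Benjamini-Hochberg adjustment. The log2 loading in ES was 0.10 for Tdgf1 (SE 0.11, counting interval 0.08 to 0.13, adjusted p = 0.517) and -0.12 for Fgf4 (SE 0.14, counting interval -0.19 to -0.05, adjusted p = 0.556), against 24.1% of all genes called in either direction. The counting intervals leave out the spread between replicates. The SE rests on 1 spread per gene over all 4 groups, the shallow ELA input included, so it is not an error of ES alone. The combined SD of the 2 ES groups was 0.0168 for Tdgf1 and 0.2144 for Fgf4 on the log2 scale. With a term for each lysate as a block, the adjusted p was 0.492 for Tdgf1 and 0.451 for Fgf4. That share rests on 762 calls, which became 200 without ES input replicate 1 and 1250 without ELA input replicate 2, and moved by over 1.5 times without each of the ES libraries and each of the ELA input libraries. A missed threshold does not show that loading was equal, and without ES Rpl10a-IP replicate 1 the Fgf4 value was 0.03. In ELA the log2 loading stood at -2.20 for Tdgf1 (counting interval -2.57 to -1.84), rank 23 from the lowest, and at 0.12 for Fgf4 (-0.60 to 0.84), or -0.08 without ELA input replicate 1.

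The pair can also be read within a library, where no scaling enters. Tdgf1 took 88.2% (95% Clopper-Pearson interval 87.6 to 88.8) and 88.1% (87.4 to 88.8) of the summed Tdgf1 and Fgf4 reads in ES input, and 90.6% (90.3 to 90.9) and 88.7% (88.4 to 89.0) in ES Rpl10a-IP. It took 81.5% (61.9 to 93.7) and 76.1% (64.5 to 85.4) in ELA input, and 43.8% (41.2 to 46.4) and 41.5% (38.5 to 44.5) in ELA Rpl10a-IP. Tdgf1 was thus the larger share in every library except the 2 of ELA Rpl10a-IP, where Fgf4 reads were in the majority. Tdgf1 reads per Fgf4 read went from 7.47 ± 0.0437 to 3.79 ± 0.865 in total RNA (SD, n = 2), and from 8.75 ± 1.29 to 0.743 ± 0.0500 on ribosomes. The ratio of these quotients, Rpl10a-IP over input, was 1.29 (counting interval 1.21 to 1.38) and 1.05 (0.981 to 1.13) in ES cells. In ELA it was 0.177 (0.0666 to 0.470) and 0.223 (0.127 to 0.390). The pair was chosen for this difference, so the gap between the stages is not read as a result.

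**Figure D2:**
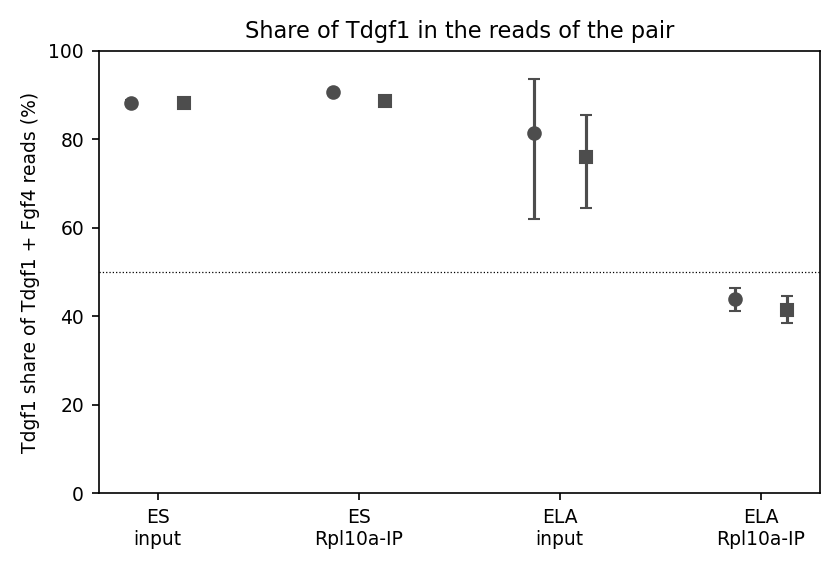
Share of Tdgf1, in percent, in the summed Tdgf1 and Fgf4 reads of each library; circles are replicate 1, squares replicate 2, bars the 95% Clopper-Pearson intervals and the dotted line marks 50%. The share passed below the line in the ELA Rpl10a-IP libraries, at 43.8% and 41.5%, and stayed at 76.1% or above in the others.

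Genes with a deep fall in total RNA differed widely in loading, as the pair did. In all, 249 genes were called and more than 2-fold lower in total RNA, 7.88% of the table. Loading of 14 of these was more than 2-fold lower, that of 211 was within 2-fold of ES and that of 24 was more than 2-fold higher. A loss of loading of that size was uncommon in the whole table too, where 9.05% of genes were called and more than 2-fold lower. Of the 37 genes whose total RNA was more than 4-fold lower, Tdgf1 was among 7 with loading more than 2-fold lower and Fgf4 among 24 within 2-fold. The remaining 6 had higher loading. Many of these genes had under 10 reads in an ELA input library, which enters both changes with opposite sign.

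**Figure D3:**
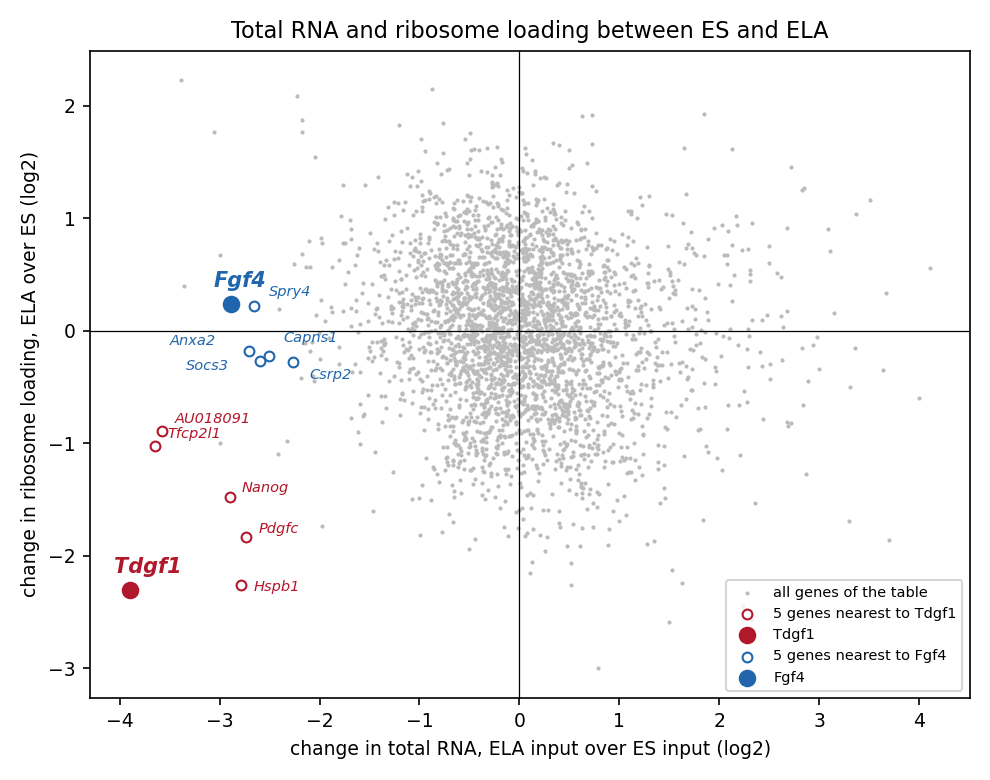
Change in total RNA (ELA input over ES input, log2, horizontal) against change in ribosome loading (ELA over ES, log2, vertical) for all 3160 genes, with Tdgf1 in red, Fgf4 in blue and open circles for the 5 genes nearest to each in pattern over the libraries. Tdgf1, at -3.89 and -2.30, stands apart at the lower left, and Fgf4, at -2.89 and 0.24, at the left near the line of unchanged loading.

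Transcript length went with loading over the table. The longest annotated coding transcript of Tdgf1 is 1925 nt in the GENCODE annotation of the earlier build NCBIM37, shorter than that of most genes, as 14.8% are shorter still. That of Fgf4 is 3030 nt, with 36.9% of genes shorter, and the median is 3698 nt. Loading change correlated with log2 length at r = 0.480 over 2979 genes of the same 8 libraries, a description across genes that are not independent. With a correction of each library for length and GC content, made together with a replicate block, the log2 loading change was -1.91 for Tdgf1 and 0.16 for Fgf4. The part of length and GC content in the loading values of the pair was not tested.

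Next on the chromosome to Tdgf1 among the genes of the table is Lrrc2, which starts 5.39 kb away, lies on the opposite strand and was looked at after its values were seen. Lrrc2 reads numbered 566 and 406 in ES input, 1469 and 1363 in ES Rpl10a-IP, 2 and 6 in ELA input, and 106 and 71 in ELA Rpl10a-IP. Its level thus also dropped in both fractions, and it was the sixth nearest gene to Tdgf1 in pattern. Ribosome-bound RNA of Lrrc2 changed by -3.99 on the log2 scale and total RNA by -2.99, the latter from so few reads that its counting interval ran from -4.15 to -1.83. The counting interval of its log2 loading change, from -2.18 to 0.18, held no change as well as a fall. The other neighbours did not share the fall in total RNA. Log2 total RNA changed by 0.06 for Lrrfip2, 171.39 kb from Tdgf1, and by 0.09 for Smarcc1 on its other side. Ccnd1, a cell cycle gene and 64.69 kb from Fgf4, had a log2 total RNA change of -0.01 (adjusted p = 0.920) and a log2 loading change of -0.61 (adjusted p = 0.00147).

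The genes most like each of the pair were found by the root mean square distance of mean-centred log2 levels over the 8 libraries. Nearest to Tdgf1 were Tfcp2l1, a transcription factor of naive pluripotency (0.588), Hspb1, a small heat shock protein (0.588), Pdgfc, a secreted growth factor (0.718), AU018091 (0.742) and Nanog, a core pluripotency factor (0.786). The fall of Tdgf1 on ribosomes was deeper than that of each of these genes. Tdgf1 was chosen for its falls, so nothing is read from that. Nanog had normalised counts of 2077 and 2025 in ES input, 2307 and 2551 in ES Rpl10a-IP, 272 and 276 in ELA input, and 118 and 114 in ELA Rpl10a-IP, the same order of groups as Tdgf1 at a lower level. Log2 loading changed by -1.47 for Nanog, by -2.26 for Hspb1 and by -1.03 for Tfcp2l1. These genes were picked for their likeness to Tdgf1 over the same libraries, so the values are given without a test. Tfcp2l1 had the second largest fall in total RNA after Tdgf1, a log2 change of -3.65.

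Nearest to Fgf4 was Spry4, an inhibitor of receptor tyrosine kinase signalling and itself known as a feedback gene of the FGF pathway, at a distance of 0.205. Socs3, a feedback inhibitor of LIF signalling (0.234), Anxa2, a membrane-binding annexin (0.235), Capns1, a calpain subunit (0.276), and Csrp2, a LIM domain protein (0.278), followed. These distances are less than those of the genes around Tdgf1, while Tdgf1 and Fgf4 themselves were 1.41 apart. That still made Fgf4 rank 14 among all genes by distance to Tdgf1, for which the median was 2.65. Seen from Fgf4, the median over all genes was 1.42, so Tdgf1 lay at about that median. Spry4 had normalised counts of 2172 and 2650 in ES input, 1846 and 2077 in ES Rpl10a-IP, 381 and 382 in ELA input, and 375 and 350 in ELA Rpl10a-IP. Like Fgf4, it fell to similar levels in both ELA fractions. Its log2 total RNA change was -2.65 and its log2 loading change 0.22, again without a test, as the gene was picked for its likeness to Fgf4. ELA input reads were only 14 and 36 for Spry4 and at most 8 for Socs3 and Anxa2. Which genes are named depends on the measure. Pearson correlation over the same 8 libraries, which leaves the size of a fall out, kept 2 of the 5 for Tdgf1, Hspb1 and Nanog, and 0 of the 5 for Fgf4.

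**Figure D4:**
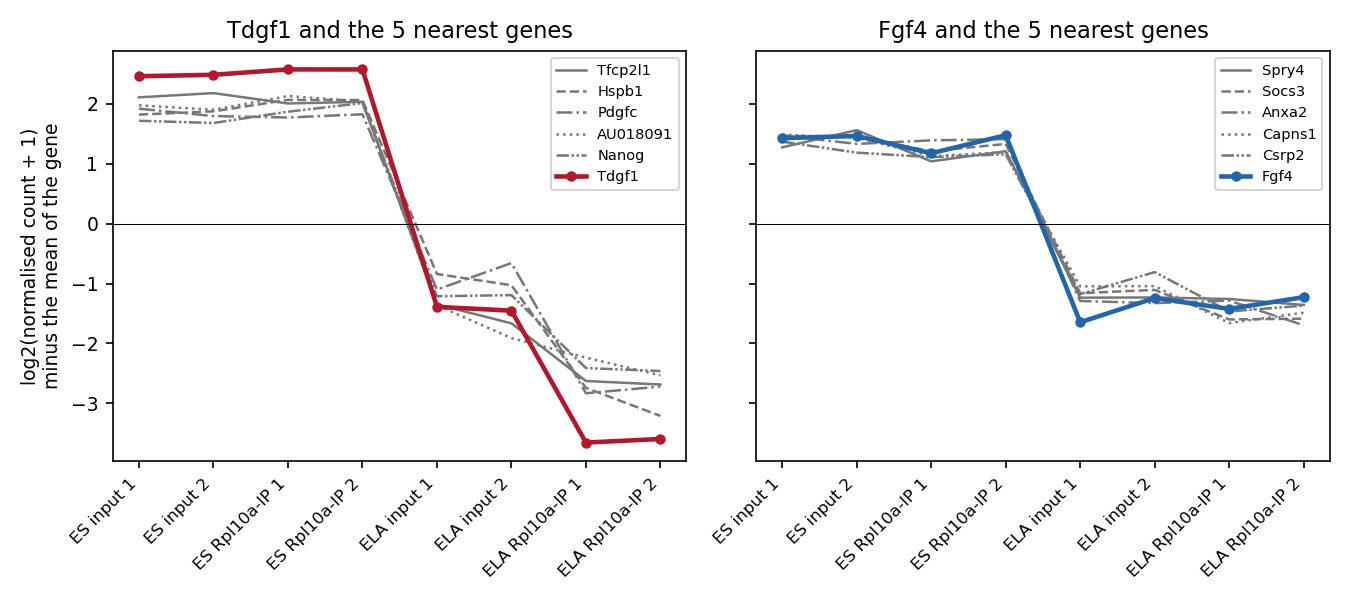
Log2(normalised count + 1) of each gene minus its own mean over the 8 libraries, for Tdgf1 (red, left) and Fgf4 (blue, right) with the 5 nearest genes of each in grey. The Tdgf1 line took a second step down from ELA input to ELA Rpl10a-IP, as did its neighbours to a lesser depth, whereas the lines around Fgf4, at distances of 0.205 to 0.278, showed no second step of that depth between the ELA fractions.

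No other measured gene of Nodal and activin signalling, in which Cripto acts, fell as far as Tdgf1. Tdgf1 was chosen for its fall, so nothing is read from that. Of 39 genes listed for this pathway, 10 were measured. Of the 9 besides Tdgf1, 4 rose and 2 fell in total RNA in limma's test with Benjamini-Hochberg adjustment, against 34.5% of all genes called higher and 35.8% called lower. The receptor Acvr2b rose by 1.36 on the log2 scale (SE 0.15, adjusted p = 1.08e-09) from normalised counts of 125 and 124 in ES input to 326 and 318 in ELA input. Trim33, which regulates Smad4, rose by 1.37, Smad4, the shared Smad, by 0.52 (adjusted p = 0.000145) and Smad2, which receptors activate, by 0.34 (adjusted p = 0.00929). The log2 changes of the corepressors Tgif1 and Skil were -0.70 and -0.33. These calls rest on ELA input, with only 37 and 95 reads for Smad2. Adjusted p-values that rest on it are too small, here and for the lists below. The median log2 total RNA change of the 9 was -0.0048, near the median of -0.0181 over all genes.

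In ribosome-bound RNA 3 of the 9 were higher and 4 lower, near the 39.0% and 39.6% of all genes. In loading, 0 of the 9 rose and 3 fell, against 28.4% and 27.7% of all genes. Smad2 fell by 0.46 (adjusted p = 0.0149), Skil fell by 0.61 (adjusted p = 0.000828) and Nomo1, part of an endoplasmic reticulum complex that restrains Nodal signalling, fell by 0.47 (adjusted p = 0.0289) in log2 loading. All 3 log2 falls were smaller than that of Tdgf1, which was chosen for its loss of loading. The number of genes called depends on single libraries. Without ES Rpl10a-IP replicate 2 or ELA Rpl10a-IP replicate 2, only 1 was called. Within ES, 1 of 9 was called for loading, against 24.1% of all genes, namely Acvr2b, with a log2 value of -0.89, and 2 with the lysate as a block, which added Trim33. That block also added Hspa5, higher, to the loading changes called.

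Of the listed FGF and ERK genes, which include inhibitors and targets of the pathway, more rose than fell. Of 49 genes listed for the FGF and ERK pathway, 21 were measured. Of the 20 besides Fgf4, 11 rose and 6 fell in total RNA, against 34.5% of all genes called higher and 35.8% called lower, with a median log2 change of 0.36. The receptors Fgfr1 and Fgfr2 rose in log2 total RNA by 0.85 each (adjusted p = 2.13e-07 and 1.59e-07) and in log2 ribosome-bound RNA by 1.31 and 1.37. Fgfr1 had normalised counts of 646 and 614 in ES input, 488 and 473 in ES Rpl10a-IP, 1251 and 1028 in ELA input, and 1323 and 1074 in ELA Rpl10a-IP. Its ELA values exceeded its ES values in both fractions, opposite to the ligand.

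Of single genes on the list, Spry4 fell as above, and Etv5, a transcription factor induced by FGF signals, fell by 0.83 in log2 total RNA (adjusted p = 1.90e-08) with no change called in loading. Fos, an immediate early gene, rose by 2.68 in log2 total RNA (adjusted p = 9.09e-21), from 354 and 379 normalised counts in ES input to 2420 and 2290 in ELA input. Dusp7, a phosphatase that acts on Erk, rose by 1.98.

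In ribosome loading, 7 of the 20 FGF and ERK genes were higher and 4 lower, against 28.4% and 27.7% of all genes. Calls in either direction were about as common as the 56.2% over the table. The GTPase Nras rose in log2 total RNA by 0.70, while its log2 loading fell by 1.02. Its log2 change in ribosome-bound RNA was -0.32. Nf1, which switches Ras off, rose by 1.30 in log2 total RNA and by 1.19 in log2 loading (adjusted p = 1.39e-07). Loading rose by 0.74 for the phosphatase Ptpn11 and fell by 1.13 for Dusp7 and by 0.81 for Fos. The loading change of Fgf4, 0.24, was close to the list's median of 0.22. Within ES, 4 of the 20 were called for loading, near the 24.1% of all genes, 7 with the lysate as a block and between 0 and 9 when single libraries were left out. For the loading change the block called 12 in place of 11, adding Rasa1, higher.

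**Figure D5:**
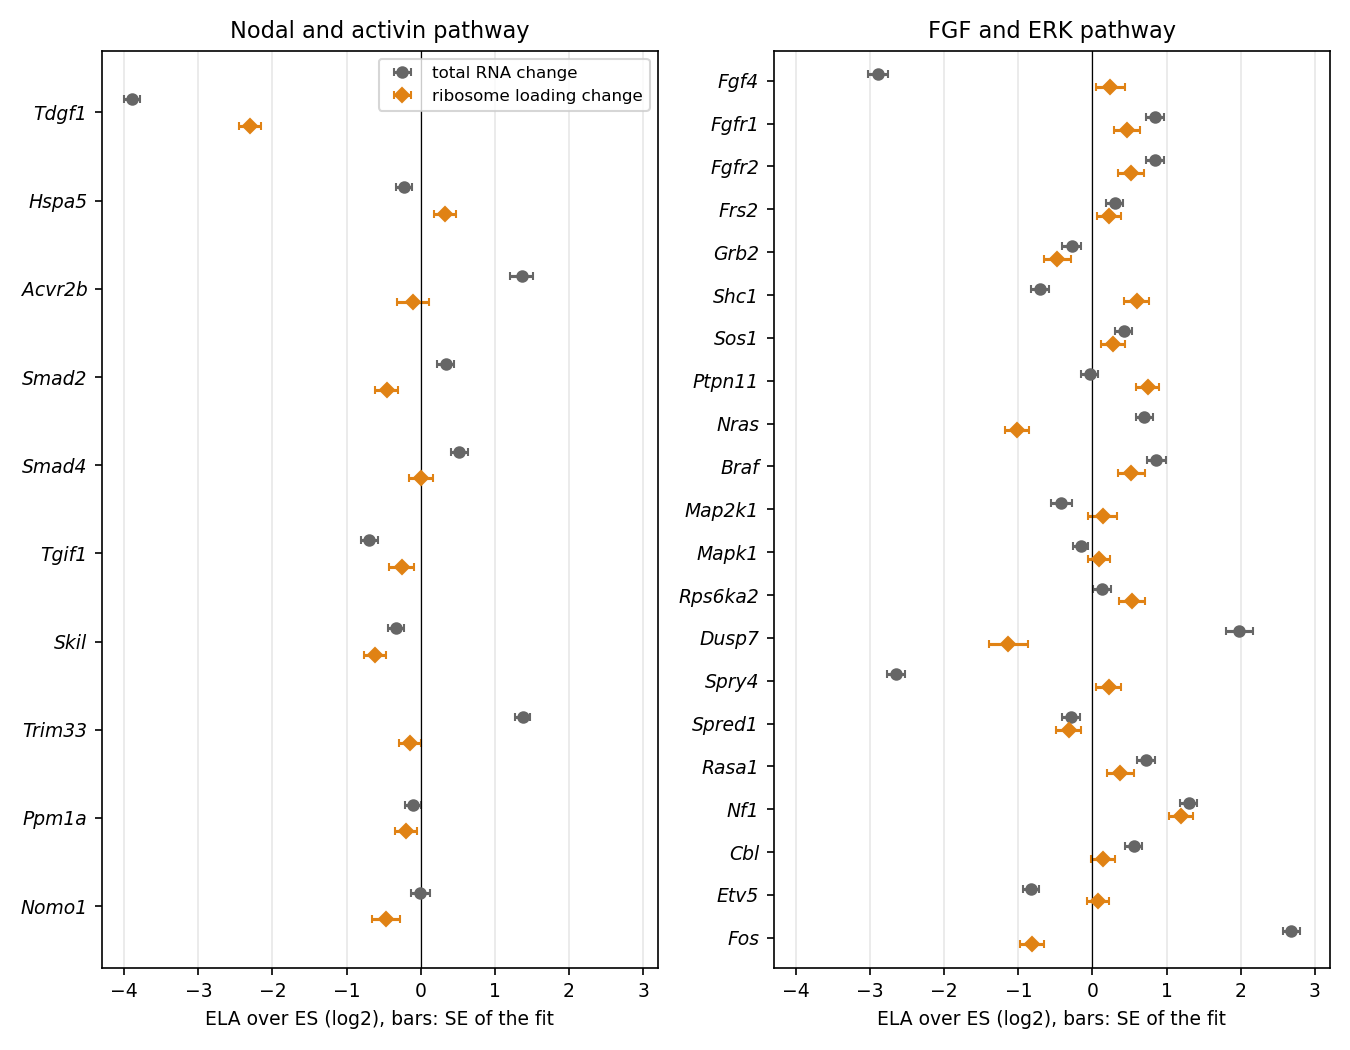
Log2 change between ES and ELA in total RNA (grey circles) and in ribosome loading (orange diamonds) for the measured genes of the Nodal and activin pathway (left) and the FGF and ERK pathway (right), with bars for the SE of the fit. Tdgf1, at the top left, is the lowest of its list on both scales, whereas Fgf4, at the top right, is the lowest of its list in total RNA only. Both genes were chosen for these changes.

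The genes that place these proteins at the cell surface were measured in part. Of 34 genes for heparan sulphate, the sugar chain through which Fgf4 binds its receptors, 10 were measured, and 6 rose and 0 fell in total RNA, against 34.5% and 35.8% of all genes. Papss1, which makes the sulphate donor, rose by 1.63 and Gpc4, a glypican that carries the chains, by 1.14 in log2 total RNA. The 4 others, Ext1, Hs2st1, Hs6st1 and Sulf2, did not pass. In loading 3 rose and 3 fell, near the 28.4% and 27.7% of all genes, among them Gpc3, which rose by 0.67, and Gpc4, which fell. Of 28 genes for the GPI anchor that holds Cripto, 3 were measured. Pgap1, which remodels the anchor, rose by 2.23 in log2 total RNA and by 0.72 in log2 loading, Dpm1 fell by 0.68 in log2 total RNA, and Piga had a log2 total RNA change of -0.18 (adjusted p = 0.216).

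Of 42 listed secreted ligands and antagonists, 7 were measured, with 4 higher and 3 lower in total RNA, against 34.5% and 35.8% of all genes. In loading 2 were higher and 4 lower, against 28.4% and 27.7%. The 3 that fell in total RNA were all called lower in loading too. Pdgfc fell by 2.74 in log2 total RNA and its log2 loading fell by 1.84. Bmp4, a ligand of the BMP pathway, fell by 1.08 in log2 total RNA and fell further in log2 loading. Hdgf, a growth factor, fell by 0.24 in log2 total RNA, and its log2 loading fell by 1.04. Ltbp1, which binds latent TGF-beta, rose on both, by 0.77 and 1.24. The ELA input reads of Pdgfc were only 2 and 7.

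LIF was in the ES medium and not in the ELA medium. Serum, the medium and floating culture changed at the same step, so a part of LIF cannot be told apart and was not tested. All 5 measured genes of the LIF and Stat3 pathway (of 10 listed) fell in total and in ribosome-bound RNA. Of all genes, 35.8% and 39.6% were called lower in these. Stat3, the transcription factor of the pathway, fell by 1.89 in log2 total RNA and its receptor Lifr fell by 1.51, with log2 loading changes of 0.21 (adjusted p = 0.292) and -0.15 (adjusted p = 0.434). Klf4 and Tfcp2l1, which are also naive pluripotency factors, had log2 loading changes of -0.78 and -1.03. Of the 7 naive and core markers, 5 fell in loading and 0 rose, against 27.7% and 28.4% of all genes. The log2 loading of Pou5f1 fell by 0.56 and that of Nanog fell by 1.47. In Tdgf1 the fall of loading was deeper than in any of these 7, while Fgf4 shared the falls in total and ribosome-bound RNA with 5 of them. Both genes were chosen for their changes, so nothing is read from this comparison.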

How the data were processed

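RNA was sequenced in 8 libraries, grouped by their titles. Per the labels and the methods, the authors aligned reads to mm10 with TopHat2 and used htseq-count for gene counts. Whether strand was used is not given in the sources used here. The authors divided counts by DESeq2 size factors, and the deposited per-library signal values are these normalised counts. Reads were read back as whole multiples of the worth of 1 read, for 100% of values within 0.01 reads. The largest deviation from a whole number was 6.69e-10 reads, and the reads of no library shared a divisor above 1. The 26 other deposited columns hold the authors' means, SDs, ratio and fold change values and a log2 column, and were not used. The number of per-sample columns belonging to no sample was 0. The deposited table holds 3160 genes. In it the larger mean deposited input count was at least 50.02, and the SD of the 2 loading ratios was at most 19.95% of their mean in ES and 19.98% in ELA, as a filter by the authors on level and replicate agreement leaves it.

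Reads were scaled by TMM factors over all 8 libraries, with TMM code written out for this purpose. Limma 3.58.1 (R 4.3.3; lmFit, and eBayes with trend) was fitted to log2(normalised count + 1), a scale that understates changes of low genes, with 1 coefficient per group, and p-values were adjusted by Benjamini-Hochberg over all genes, with a threshold of 0.05. The methods of the study leave out ELA input replicate 1. All 8 libraries were used here, with its omission as an alternative. The counting error of a log2 change was computed from the reads, and intervals are 95%. The floor is 3 reads. Transcript length and GC content were matched by symbol for 2979 genes, and promoters of both genes were matched in RefSeq. The scripts were tested on simulated data. Named were Tdgf1, Fgf4, measured genes of the lists, and for each of the pair the 5 genes at the smallest root mean square distance over the libraries. Lrrc2 and the other chromosome neighbours were added after values were seen. One further gene of the FGF and ERK list was left out of the list, its counts and its plot, and is not reported here. The members and all lists were chosen with earlier results of these data known.

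In the methods, each clarified lysate gave its input sample before the immunoprecipitation, so same-numbered input and Rpl10a-IP libraries of a stage were taken as a pair. The labels tie no number across stages. The deviations of same-numbered libraries from the group means correlated at 0.170 between ES fractions and 0.504 between ELA fractions, and at -0.0246 to 0.170 between stages. The numbers were thus not taken to pair all 4 groups. The main fit holds no block, and a block for each lysate within its stage, added after the data were seen, and one for the replicate number over both stages are alternatives. Alternatives were each library left out, other scalings, pseudocounts of 0.1 and 10, a minimum of 10 reads, and a replicate block without and with a length and GC correction.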

Additional observations from a re-analysis of the deposited data

Results flagged for a closer look

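Ribosome loading of Tdgf1 lay above 1 in both ES replicates and below 1 in both ELA replicates, a log2 difference of -2.3049 between the stages. This difference is the basis on which the gene was chosen and was not tested. Among the pathway genes, 14 others differed between ES and ELA in loading by the interaction term of limma. In the Nodal and activin list the log2 differences were -0.462 for Smad2, -0.6136 for Skil and -0.4685 for Nomo1. In the FGF and ERK list, loading was higher in ELA for Fgfr1 by 0.4623, Fgfr2 by 0.5207, Shc1 by 0.5999, Ptpn11 by 0.7426, Braf by 0.5222, Rps6ka2 by 0.5344 and Nf1 by 1.1941. It was lower for Grb2 (-0.474), Nras (-1.0205), Dusp7 (-1.133) and Fos (-0.813). With 56.2% of all genes called on this comparison, such differences were common in the table. Groups of 2 libraries were too small for a check of single outlying samples.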

How the results depend on the processing

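Of the alternative values computed, 375 kept their direction and their side of the threshold or stayed within the replicate spread and 34 moved. Of the values of the pair, 2 changed sign, both of Fgf4: loading in ES, and loading in ELA, at -0.08 without ELA input replicate 1. The total RNA, ribosome-bound and loading changes of Tdgf1 and its loading in ELA stayed negative, and its loading in ES positive. The log2 total RNA change of Tdgf1 was -3.98 with the deposited size factors, -3.83 with total reads and -3.58 with a replicate block and length and GC correction. Its ribosome-bound change was -6.32 with the deposited factors, -6.10 with a pseudocount of 10 and -5.49 with the combined correction. Its loading change was -2.40, -2.23 and -1.91 with total reads, a pseudocount of 10 and the combined correction, and its loading in ELA -2.31, -2.13 and -1.84. With single libraries left out, the loading change ranged from -2.34 to -2.27 for Tdgf1 and from 0.04 to 0.44 for Fgf4, and loading of Fgf4 in ES from -0.27 to 0.0309, positive without ES Rpl10a-IP replicate 1. The genes called for loading in ES ranged from 200 to 1250 of 3160 (762 with all libraries), in the Nodal list from 1 to 2 and in the FGF list from 0 to 9. The Nodal genes called for loading change ranged from 1 to 4, and were 5 with the combined correction. The cause was not tested.

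With input and Rpl10a-IP of a lysate paired, by a replicate block within each stage that was added after the data were seen, every loading estimate stayed as it was. It called 1069 genes for loading in ES in place of 762, with 2 Nodal and 7 FGF genes in place of 1 and 4, and changed no call of the pair. The replicate number as 1 block over both stages called 990, 2 and 6. Pearson correlation kept 2 of the 5 genes nearest to Tdgf1 and 0 of those nearest to Fgf4. The deposited factors were set apart within input and within Rpl10a-IP, so they give no loading within a stage. With a minimum of 10 reads Fgf4 has no value. The planned edgeR and DESeq2 tests were not run, because count models were kept to values deposited as counts, though the reads recovered could have entered them. Depth limits Fgf4, as its total RNA in ELA rests on 5 and 17 reads.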
